A study of Mus musculus with 6 samples.

Results

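The genes described are 41 genes of glycolysis, glycogen metabolism and glucose and lactate transport, out of 49315 genes counted in mouse gastrocnemius. They were chosen by name: the enzymes from hexokinase to lactate dehydrogenase with their muscle and ubiquitous isoforms, the enzymes that make and break glycogen, the proteins that target phosphatase to glycogen, and the carriers of glucose and lactate. All 41 were matched by gene identifier. The libraries came from the whole gastrocnemius, the large calf muscle, of mice 3 months old on a mixed C57BL/6 129 background. The 3 WT libraries and the 3 from a knockout of Hnrnpu restricted to muscle (mKO in the labels) share that age, tissue and background. Hnrnpu encodes a nuclear RNA-binding protein with roles in transcription and splicing. The sources used here give neither the promoter or Cre that drove the deletion nor the exons removed, and the labels do not say whether each library came from a separate animal. P-values therefore measure the spread between these libraries.

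Glycolysis converts glucose to pyruvate in the cytosol and yields ATP without oxygen, and fast fibres of limb muscle rely on it during intense contraction. Glucose enters through carriers of the GLUT family, is trapped by hexokinase, and is either burned or stored as glycogen, a branched polymer that phosphorylase cuts back when calcium and adrenaline signals arrive. Many steps have an isoform made mainly in muscle beside one made in most tissues, and differentiating muscle is known to replace the latter with the former.

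Counts per library ranged from 32108684 to 42344238. Levels are given as CPM, counts scaled to a common library size, here the size corrected by the trimmed mean of M-values (TMM). Fold changes are mKO over WT, and the SE is the standard error of a log2 value. Tests are edgeR quasi-likelihood tests with p-values adjusted by Benjamini-Hochberg over 16650 genes, and a gene with an adjusted p under 0.05 is called lower or higher. The TMM factors were 0.845 to 0.859 in WT and 1.155 to 1.2005 in mKO libraries, so that the scaling itself differed by group. Scaling by library totals in place of TMM shifted the median log2 value over all tested genes by 0.47, from 0.02 to 0.49, and calls of the 41 genes that turn on this are marked. Hnrnpu was at 233, 235 and 247 CPM in WT and 209, 210.4 and 205 CPM in mKO libraries (log2 -0.20, SE 0.10, edgeR adjusted p = 0.147, and with library totals log2 0.27, adjusted p = 0.0402). Reads summed over the gene are no check of a deletion in part of it, so each direction below is that of libraries as labelled. The tissue was skeletal muscle by its defining genes, with mean levels in WT and mKO of 26416 and 10138 CPM for Ckm, 9935 and 5410 CPM for Acta1, 172820 and 143911 CPM for Ttn, 25463 and 21121 CPM for Neb, 42746 and 14356 CPM for Myh4, and 11108 and 6383 CPM for Tnnt3.

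Most of the abundant genes of the pathway were lower in the mKO libraries. Of the 41 genes, 24 were called lower, 5 higher and 12 neither, where 18.9% of all tested genes were called lower and 18.2% higher (37.0% in either direction). The median log2 fold change of the 41 genes was -0.68, and that of all tested genes was 0.02. At least 2-fold lower were 10 of the genes called lower, against 5.39% of all tested genes, and no gene of the 41 was 2-fold higher, against 8.77% of all. The WT and mKO libraries did not overlap in 31 of the 41 genes, the 24 called lower among them, and in 49.3% of all tested genes. With library totals the counts were 18 lower and 12 higher, against 6.75% and 49.0% of all tested genes (55.8% called in all), and the median was -0.21 against 0.49 over all. The 24 genes called lower kept a negative sign under library totals, but 6 of them lost the call (Tpi1, Gapdh, Pgk1, Ldha, Gbe1 and Ugp2). The count called higher ranged from 2 without mKO replicate 1 or 3 to 8 without WT replicate 2, and was 3 without WT replicate 1 or 3.

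Summed over the 41 genes, transcripts took 4.02%, 3.97% and 3.57% of all counts in the WT libraries and 2.97%, 2.68% and 2.83% in the mKO libraries. On the TMM scale the sum was 45308 ± 2578 CPM in WT and 24062 ± 1025 CPM in mKO (SD, n = 3 each), a ratio of 0.531. The groups did not overlap on either scale. The 16 genes of the enzymes from hexokinase to pyruvate kinase made up most of it, at 32187 ± 3011 CPM in WT and 16991 ± 1013 CPM in mKO. In bulk tissue, fewer cells of a type and less RNA per cell cannot be told apart.

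**Figure D1:**
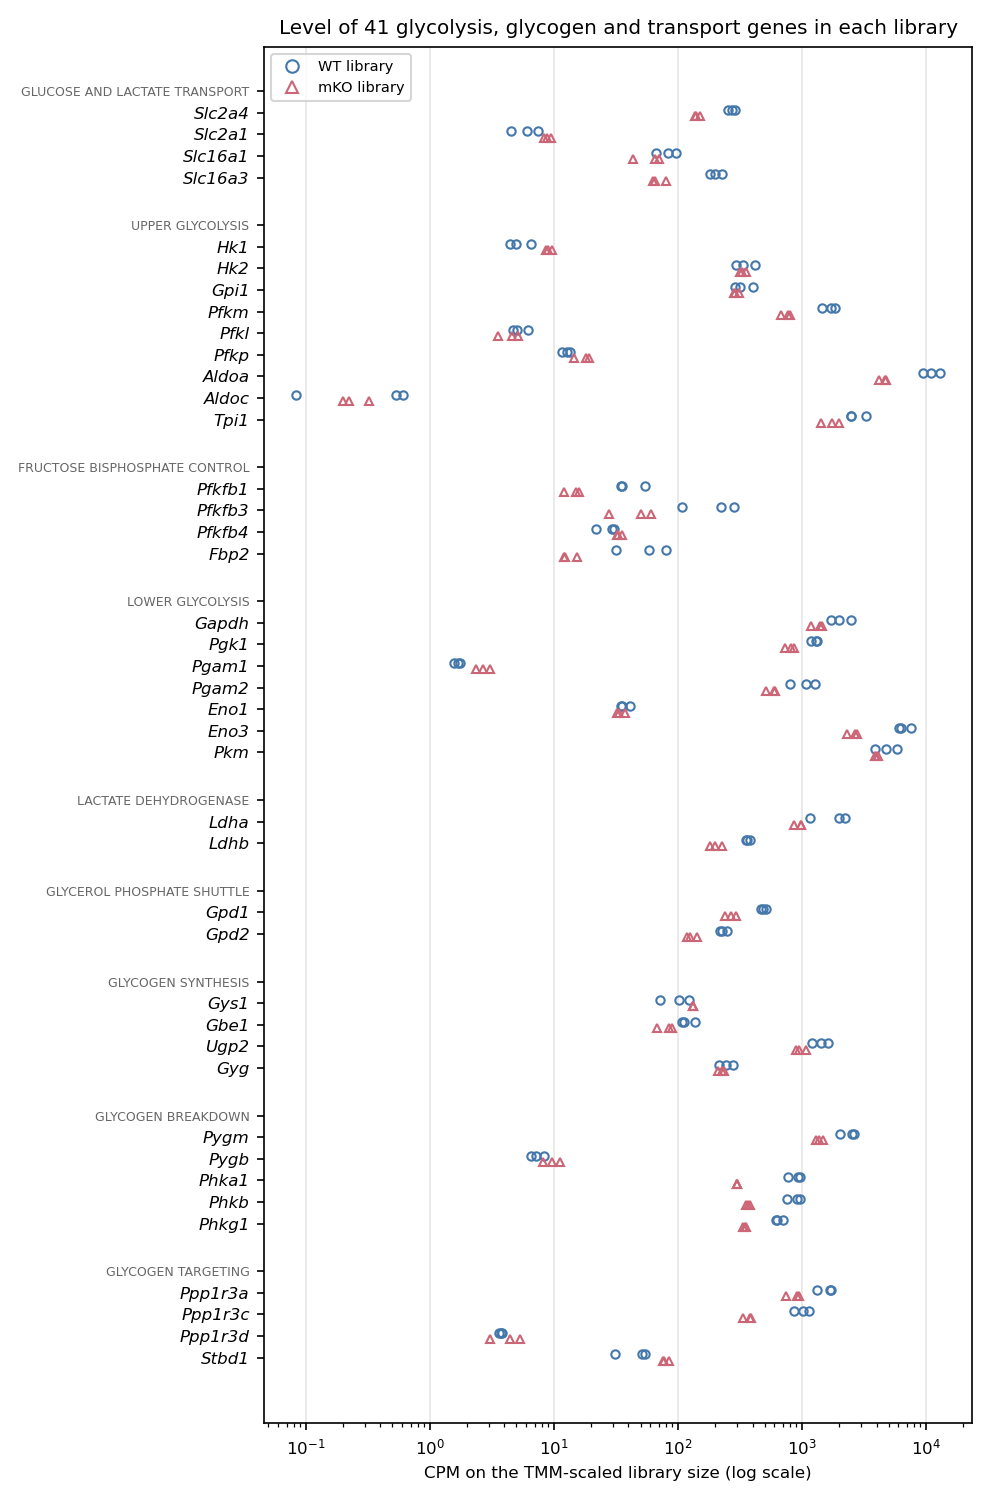
Level of each of the 41 genes in every library, in CPM on a log axis, with WT and mKO libraries as separate points and genes ordered by role. Abundant genes such as Aldoa, Eno3 and Phka1 have all mKO points to the left of the WT points, and scarce genes such as Hk1 and Slc2a1 have them to the right.

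Calls in the 2 directions lay at different levels. Of the 27 genes with a mean of at least 100 CPM over all libraries, 22 were called lower and 0 higher, with a median log2 fold change of -0.87. Of all 1204 genes in that band, 48.4% were called lower and 8.97% higher, with a median of -0.32. With library totals 16 of the 27 were lower and 3 higher (Hk2, Gys1 and Gyg). Among the 7 genes at 10 to 100 CPM, 2 were lower (Pfkfb1 and Fbp2) and 2 higher (Pfkp and Stbd1), where 26.8% and 16.8% of all genes in that band were called lower and higher. Among the 7 genes under 10 CPM, 0 were lower and 3 higher (Slc2a1, Hk1 and Pgam1), where 9.88% and 20.2% of all genes in that band were called lower and higher. With library totals the genes called higher numbered 4 of 7 at 10 to 100 CPM and 5 of 7 under 10 CPM. The shares by band above are those of TMM scaling. With library totals 6.75% of all tested genes, of every level, were called lower and 49.0% higher, and shares by band are not given. Not all genes followed their band, since Gys1, above 100 CPM, had a positive value, and Pfkl and Aldoc, under 10 CPM, had negative ones.

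**Figure D2:**
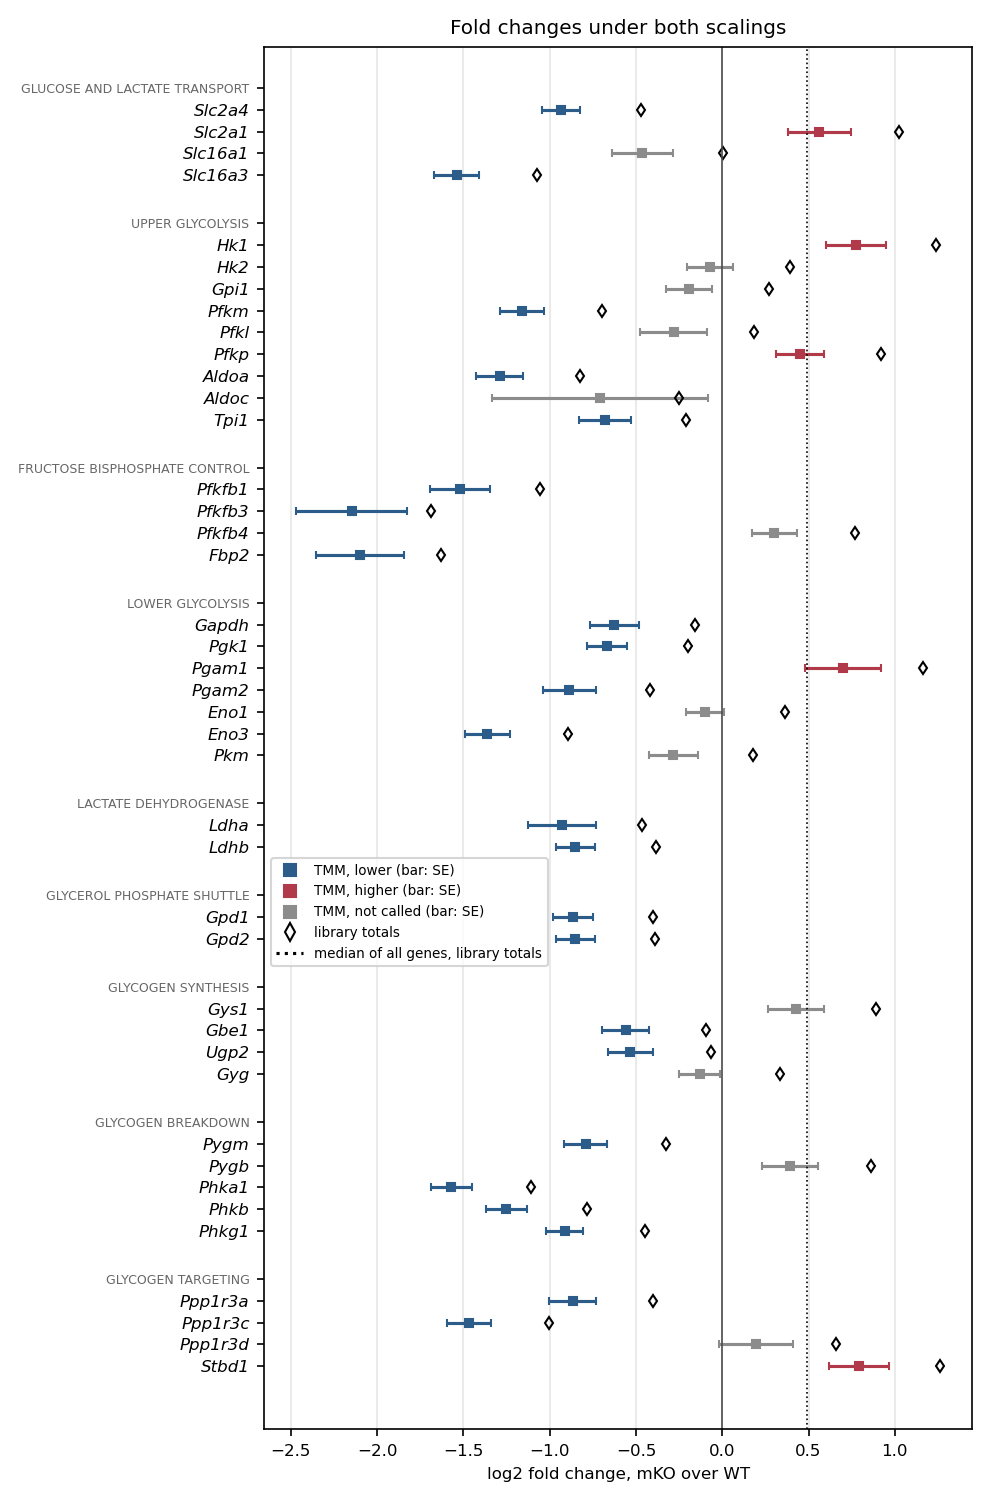
Log2 fold change (mKO over WT) of the 41 genes grouped by role, as squares with bars of 1 SE for TMM scaling (blue called lower, red higher, grey not called) and as diamonds for library totals, with a dotted line at the median of all genes under library totals (0.49). TMM values run from -2.15 for Pfkfb3 to 0.79 for Stbd1, and the 5 genes called higher are Slc2a1, Hk1, Pfkp, Pgam1 and Stbd1.

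Among the carriers, the insulin-responsive glucose transporter and the lactate exporter of glycolytic fibres fell, and the ubiquitous glucose transporter rose. Slc2a4, which encodes GLUT4 (chr11:69942539-69948188, GRCm38), was at 275, 290.2 and 253 CPM in WT and 151, 140.5 and 137 CPM in mKO libraries. The groups lay far apart, and the fold change was 1.91 downward (log2 -0.94, SE 0.11, edgeR adjusted p = 3.60e-05). Slc2a1, which encodes GLUT1, was at 7.42, 6.13 and 4.50 CPM in WT and 8.79, 8.35 and 9.48 CPM in mKO libraries (log2 0.56, SE 0.18, edgeR adjusted p = 0.0289). Its groups came close without overlap, and the call was lost without WT replicate 3 (adjusted p = 0.113), mKO replicate 1 (0.0690) or mKO replicate 3 (0.0973) by edgeR. Per kilobase of listed exon, GLUT4 transcripts were 78.4 in WT and 41.01 CPM in mKO, and GLUT1 transcripts 1.72 and 2.53 CPM.

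Slc16a3 encodes MCT4, which carries lactate out of the cell. Its level was 201, 227 and 180.3 CPM in WT and 79.6, 65.9 and 63.5 CPM in mKO libraries, 2.91-fold lower (log2 -1.54, SE 0.13, edgeR adjusted p = 3.26e-06). Slc16a1, which encodes MCT1, the carrier of oxidative fibres, was at 66.5, 96.8 and 83.8 CPM in WT and 70.7, 43.7 and 64.9 CPM in mKO libraries. Here the groups overlapped and the test was not passed (log2 -0.46, SE 0.18, edgeR adjusted p = 0.0579, with library totals log2 0.01). Without WT replicate 1 or mKO replicate 1 Slc16a1 was called lower (edgeR adjusted p = 0.0219 and 0.0343), as it was by DESeq2 (adjusted p = 0.0327), by limma-voom (0.0498) and by edgeR without a low-count filter (0.00214).

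In the upper, ATP-consuming steps of glycolysis, 3 of 9 genes fell, 2 rose and 4 did not pass the test. Of all tested genes 18.9% were called lower and 18.2% higher. With library totals 2 of the 9 were lower and 3 higher, against 6.75% and 49.0% of all. Hexokinase traps glucose in the cell, and Hk2 is its main form in adult muscle. Hk2 was at 338, 417 and 294 CPM in WT and 317, 351 and 329.8 CPM in mKO libraries, so the groups overlapped (log2 -0.07, SE 0.13, edgeR adjusted p = 0.708). The value was 0.07 without WT replicate 2, and with library totals Hk2 was called higher (log2 0.39, edgeR adjusted p = 0.0235). Hk1, the form of most other tissues, rose from 4.91, 6.59 and 4.45 CPM in WT to 8.66, 9.68 and 8.91 CPM in mKO libraries. Every mKO library was above every WT library, at a 1.71-fold difference (log2 0.77, SE 0.17, edgeR adjusted p = 0.00373). Gpi1, glucose phosphate isomerase, was at 315, 404 and 292 CPM in WT and 283, 310.5 and 291 CPM in mKO libraries (log2 -0.19, edgeR adjusted p = 0.273, with library totals log2 0.27). These values overlapped.

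Phosphofructokinase commits sugar to glycolysis and is controlled by energy charge. The muscle subunit gene Pfkm (chr15:98092589-98132447) was at 1838, 1725 and 1455 CPM in WT and 799, 675 and 771 CPM in mKO libraries. It fell 2.24-fold (log2 -1.16, SE 0.13, edgeR adjusted p = 2.08e-05), with a wide gap between the groups. The platelet subunit gene Pfkp stood at 11.7, 12.7 and 13.5 CPM in WT and 19.1, 14.4 and 18.3 CPM in mKO libraries, with no overlap (log2 0.45, SE 0.14, edgeR adjusted p = 0.0223). Leaving out WT replicate 1, mKO replicate 1 or mKO replicate 3 ended the call of Pfkp, at edgeR adjusted p = 0.0778, 0.0971 and 0.0888. The liver subunit gene Pfkl had 3.52 to 6.25 CPM over the 6 libraries and did not pass the test (log2 -0.28, edgeR adjusted p = 0.283, with library totals log2 0.18).

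Aldolase splits the sugar into a pair of 3-carbon sugars. Aldoa (chr7:126795234-126809108), one of the most abundant transcripts of the set, was at 11062.5, 12947 and 9396 CPM in WT and 4811, 4217 and 4644 CPM in mKO libraries. The highest mKO library lay far below the lowest WT library, and the fitted fall was 2.44-fold (log2 -1.29, SE 0.14, edgeR adjusted p = 1.70e-05). Tpi1, triosephosphate isomerase, was at 2482, 3279 and 2482 CPM in WT and 1974, 1428 and 1749 CPM in mKO libraries, 1.60-fold lower without overlap (edgeR adjusted p = 0.00349, with library totals log2 -0.21 and adjusted p = 0.252). Aldoc, the brain aldolase, was under 1 CPM in every library and could not be resolved (log2 -0.71, SE 0.63, edgeR adjusted p = 0.408).

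The genes that set the level of fructose 2,6-bisphosphate, the activator of phosphofructokinase, and the opposing phosphatase held the largest falls of the 41 under TMM scaling. Pfkfb3, the inducible kinase isoform, was at 283, 108 and 224 CPM in WT and 27.6, 50.9 and 60.3 CPM in mKO libraries. The WT libraries differed among themselves by more than the mKO libraries did, yet the groups did not overlap (log2 -2.15, SE 0.32, edgeR adjusted p = 0.000234, 4.43-fold lower). Without any single library the log2 value of Pfkfb3 lay between -2.46 and -1.85. Fbp2, the muscle fructose bisphosphatase that runs the step in reverse, was at 31.7, 79.8 and 58.7 CPM in WT and 12.1, 15.3 and 12.4 CPM in mKO libraries (log2 -2.10, SE 0.25, edgeR adjusted p = 4.92e-05). Its fall was 4.28-fold, and leaving out single libraries gave log2 values from -2.39 to -1.78. Pfkfb1, a bifunctional isoform of liver and muscle, was at 35.1, 54.0 and 34.9 CPM in WT and 15.1, 12.1 and 16.0 CPM in mKO libraries, 2.87-fold lower (edgeR adjusted p = 3.43e-05). Pfkfb4 did not pass the test with 29.5, 30.4 and 21.8 CPM in WT and 32.4, 35.3 and 33.0 CPM in mKO libraries (log2 0.30, edgeR adjusted p = 0.0914), although no values overlapped. It was called higher without WT replicate 2 (edgeR adjusted p = 0.0413), with upper quartile factors (0.0481) and with library totals (log2 0.77, 0.000445).

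In the lower, ATP-yielding steps, 4 of 7 genes fell, 1 rose and 2 did not pass the test, where 18.9% of all tested genes were called lower and 18.2% higher. With library totals 2 of the 7 were lower and 2 higher, against 6.75% and 49.0% of all. Gapdh, the dehydrogenase that is often used as a reference gene, was at 2009, 2481 and 1718 CPM in WT and 1446, 1187 and 1390.3 CPM in mKO libraries. It was 1.54-fold lower with no overlap (log2 -0.63, SE 0.14, edgeR adjusted p = 0.00436), but with library totals the log2 value was -0.16 (adjusted p = 0.362). Pgk1, phosphoglycerate kinase, was at 1192, 1329 and 1310.3 CPM in WT and 867, 725 and 819 CPM in mKO libraries (log2 -0.67, edgeR adjusted p = 0.000645, with library totals -0.20 and adjusted p = 0.154). Both genes thus fell less than Aldoa, Eno3 or Pfkm in fitted value, a difference that was not tested.

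Phosphoglycerate mutase and enolase each have a muscle gene and a ubiquitous one. Pgam2 (chr11:5801640-5803733) was at 1280.1, 809 and 1070.1 CPM in WT and 602, 514 and 594 CPM in mKO libraries, 1.85-fold lower (log2 -0.89, SE 0.15, edgeR adjusted p = 0.000728). Pgam1 (chr19:41911871-41918664) was at 1.57, 1.75 and 1.68 CPM in WT and 3.04, 2.38 and 2.70 CPM in mKO libraries. It was called higher (log2 0.70, SE 0.22, edgeR adjusted p = 0.0259) without overlap, and the call was lost without WT replicate 1 (0.0709), WT replicate 3 (0.0623), mKO replicate 1 (0.0955) or mKO replicate 3 (0.0716). Eno3, the muscle enolase (chr11:70657202-70662513), was at 6278, 7551 and 6104 CPM in WT and 2676, 2289.7 and 2795 CPM in mKO libraries. Its 2.57-fold fall left a wide gap between the groups (log2 -1.36, SE 0.13, edgeR adjusted p = 8.06e-06). Eno1 overlapped between groups at 32.5 to 40.9 CPM over the 6 libraries (log2 -0.10, edgeR adjusted p = 0.517). With library totals Eno1 was called higher (log2 0.36, edgeR adjusted p = 0.0172).

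Pkm, pyruvate kinase, gives the last ATP, and its count sums the splice forms M1 and M2. It was at 5843, 3902 and 4769 CPM in WT and 3895, 4071 and 3948 CPM in mKO libraries. The groups overlapped because WT replicate 2 lay within the mKO range, and the test was not passed (log2 -0.28, SE 0.14, edgeR adjusted p = 0.137, with library totals 0.18). Without WT replicate 2 Pkm was called lower (log2 -0.42, edgeR adjusted p = 0.0104). Of its listed exon bases, 15.3% overlap the predicted gene Gm49759.

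WT replicate 2 was at an end of the WT values in several genes, in both directions. It had the lowest WT level of Pfkfb3, Pgam2, Pkm and Ldha, and the highest of Aldoa, Tpi1, Gapdh, Eno3, Hk2, Gpi1 and Fbp2. These genes were picked from their values. In every gene some library is lowest and some highest, and how often each library was so over all genes was not counted.

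Both lactate dehydrogenase genes fell. Ldha, the form of glycolytic tissue, was at 2247, 1152 and 2001 CPM in WT and 986, 862 and 985 CPM in mKO libraries, 1.91-fold lower (log2 -0.93, SE 0.20, edgeR adjusted p = 0.00260, with library totals -0.47 and adjusted p = 0.0588). Ldhb, the form of heart and oxidative fibres, was at 360.3, 379 and 355 CPM in WT and 225, 183 and 199 CPM in mKO libraries, 1.81-fold lower (edgeR adjusted p = 0.000101). Neither gene overlapped between groups. The glycerol phosphate shuttle, which passes electrons from cytosolic NADH to mitochondria, moved by a like amount. Its cytosolic enzyme gene Gpd1 was at 514, 482 and 468 CPM in WT and 239, 294 and 270.3 CPM in mKO libraries (log2 -0.87, edgeR adjusted p = 9.78e-05). Its mitochondrial enzyme gene Gpd2 was at 249, 229 and 219 CPM in WT and 119, 141 and 126 CPM in mKO libraries (log2 -0.85, edgeR adjusted p = 9.93e-05). Both fell 1.80-fold to 1.82-fold without overlap.

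In glycogen synthesis the fitted changes were small. Ugp2, which makes the UDP-glucose donor, was at 1430.2, 1199.7 and 1610.2 CPM in WT and 1079, 899.8 and 951 CPM in mKO libraries (log2 -0.53, edgeR adjusted p = 0.00677). Gbe1, the branching enzyme, was at 112, 137 and 109 CPM in WT and 90.1, 67.7 and 84.9 CPM in mKO libraries (log2 -0.56, edgeR adjusted p = 0.00618). Both were called lower without overlap, but with library totals their log2 values were only -0.07 and -0.09. Gys1, muscle glycogen synthase, was at 102, 124 and 71.8 CPM in WT and at 133, 134 and 133 CPM in mKO libraries. All mKO libraries were above all WT libraries, with an edgeR adjusted p = 0.0567 (log2 0.43, SE 0.16). Of the 17 alternatives run, 8 called Gys1 higher, among them library totals (log2 0.89, edgeR adjusted p = 0.000647), leaving out WT replicate 2 (edgeR adjusted p = 0.00531), DESeq2 (adjusted p = 0.0332) and limma-voom (adjusted p = 0.0371). Gyg, the self-glucosylating primer, overlapped between groups at 211 to 277 CPM (log2 -0.13, edgeR adjusted p = 0.418), and with library totals it was called higher (log2 0.33, edgeR adjusted p = 0.0338). Summed, the 4 synthesis genes held 0.160% of counts in WT and 0.166% in mKO libraries, and these shares overlapped. On the TMM scale their sum was 1878 ± 184 CPM in WT and 1415 ± 101 CPM in mKO (SD, n = 3 each), without overlap.

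In glycogen breakdown 4 of 5 genes fell, where 18.9% of all tested genes were called lower. With library totals 4 were lower and 1 higher, against 6.75% and 49.0% of all. Pygm, muscle glycogen phosphorylase, was at 2529, 2621 and 2040.2 CPM in WT and 1308, 1473 and 1373 CPM in mKO libraries, 1.73-fold lower without overlap (log2 -0.79, SE 0.12, edgeR adjusted p = 0.000353). Pygb, the brain form, was at 6.51, 8.34 and 7.16 CPM in WT and 11.1, 8.22 and 9.58 CPM in mKO libraries, which overlapped (log2 0.39, edgeR adjusted p = 0.0755). It was called higher with library totals (log2 0.86, edgeR adjusted p = 0.000890), with upper quartile factors (0.0422) and without WT replicate 2 or mKO replicate 2 (0.0431 and 0.0450). Phosphorylase kinase, which switches phosphorylase on in response to calcium and adrenaline signals, fell in all 3 of its listed subunit genes. The regulatory alpha subunit gene Phka1 (chrX:102513975-102644246) was at 969, 769.8 and 932 CPM in WT and 298, 299 and 301 CPM in mKO libraries. Its 2.97-fold fall had the lowest adjusted p of the 41 genes (log2 -1.57, SE 0.12, edgeR adjusted p = 1.52e-06). The beta subunit gene Phkb was at 963, 756 and 907 CPM in WT and 355, 369.5 and 379 CPM in mKO libraries (log2 -1.25, SE 0.12, edgeR adjusted p = 8.06e-06). The catalytic gamma subunit gene Phkg1 was at 705, 620.5 and 627 CPM in WT and 336, 348 and 353 CPM in mKO libraries (log2 -0.91, SE 0.11, edgeR adjusted p = 4.12e-05). None of the 3 subunit genes overlapped between groups. Per kilobase, Phka1, Phkb and Phkg1 lay at 142, 118 and 99.98 CPM in WT and at 47.8, 49.6 and 53.1 CPM in mKO libraries.

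Glycogen-targeting proteins bring protein phosphatase 1 to the particle, where it favours synthesis. Ppp1r3c, which encodes PTG, was at 1029.7, 872 and 1144 CPM in WT and 382, 333 and 386 CPM in mKO libraries, 2.77-fold lower (log2 -1.47, SE 0.13, edgeR adjusted p = 4.24e-06). Ppp1r3a, the muscle-specific targeting subunit, was at 1677, 1336 and 1727 CPM in WT and 745, 945 and 909 CPM in mKO libraries, 1.82-fold lower (log2 -0.87, SE 0.14, edgeR adjusted p = 0.000338). In both genes the groups lay apart. Ppp1r3d, at 3.06 to 5.30 CPM over the 6 libraries, overlapped (log2 0.19, edgeR adjusted p = 0.518), and was called higher with library totals (log2 0.66, edgeR adjusted p = 0.0197). Stbd1, a membrane protein that binds glycogen and is linked to its delivery to lysosomes, went the other way. Its level was 31.0, 54.7 and 51.1 CPM in WT and 84.3, 76.8 and 75.9 CPM in mKO libraries, 1.73-fold higher with no overlap (log2 0.79, SE 0.17, edgeR adjusted p = 0.00335). Stbd1 and Hk1 were the only genes of the 5 called higher that kept the call in all 17 alternatives run.

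The balance of muscle and ubiquitous isoforms was compared within each library, as the log2 ratio of counts plus 0.5, which does not depend on scaling between libraries. In 8 of 10 pairs the ratio was lower in every mKO library than in every WT library. With 3 libraries against 3 the exact two-sided permutation test cannot go below p = 0.1, and each of these 8 pairs reached it (0.125 adjusted over the 10 pairs). Pfkm stands in both phosphofructokinase pairs, and no share of such pairs over all genes was computed. Over all tested genes the median log2 fold change was -0.32 at a mean of at least 100 CPM and 0.17 under 10 CPM. Most pairs set an abundant gene over a scarce one, and the part of level in these ratios was not tested. Pfkm over Pfkp fell from a log2 ratio of 7.04 ± 0.28 in WT to 5.44 ± 0.09 in mKO (SD, n = 3 each). Pgam2 over Pgam1 went from 9.27 ± 0.41 to 7.72 ± 0.08, Slc2a4 over Slc2a1 from 5.53 ± 0.30 to 4.01 ± 0.14, and Eno3 over Eno1 from 7.48 ± 0.23 to 6.22 ± 0.26. Pygm over Pygb differed by -1.17, Slc16a3 over Slc16a1 by -1.06, Pfkm over Pfkl by -0.87 and Hk2 over Hk1 by -0.85. Ldha over Ldhb overlapped, at 2.25 ± 0.56 in WT and 2.23 ± 0.09 in mKO (exact permutation p = 1). This rested on WT replicate 2, at 1.602 against 2.640 and 2.495 in the other WT libraries, and without it the difference was -0.34 with no overlap. Aldoa over Aldoc also overlapped (exact permutation p = 0.3), with as few as 3 counts of Aldoc in a library.

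**Figure D3:**
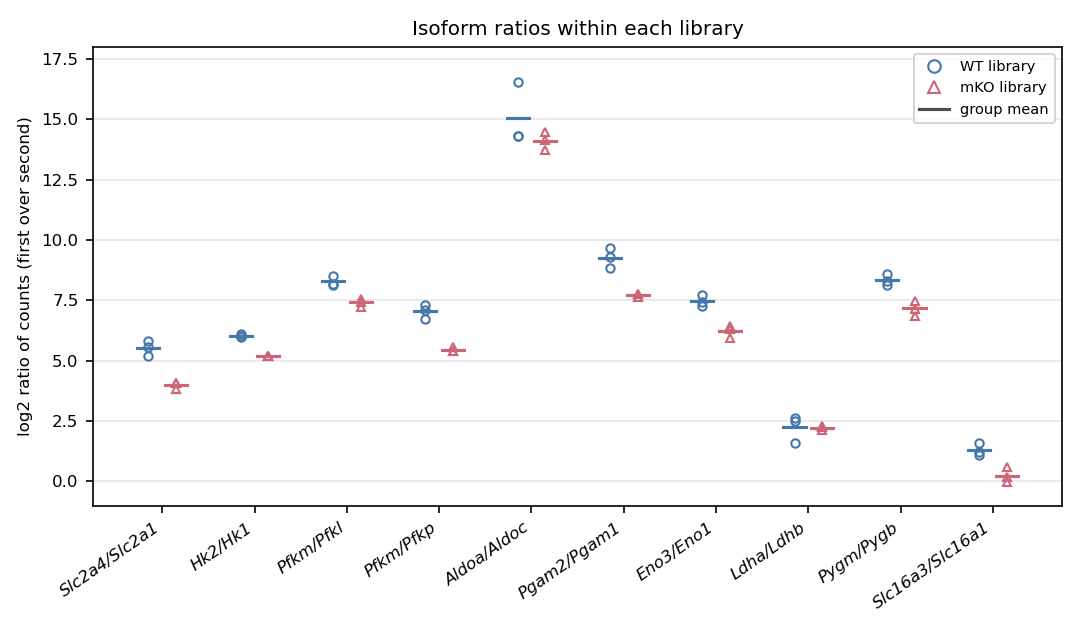
Log2 ratio of the muscle or fast-fibre isoform to the other isoform in each library for the 10 pairs, with WT libraries as circles, mKO libraries as triangles and group means as horizontal lines. The mKO points lie below all WT points in 8 pairs and overlap them in Ldha over Ldhb and Aldoa over Aldoc.

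The muscle isoform still dominated after the shift in most families. Per kilobase of exon, Slc2a4 exceeded Slc2a1 47.3 times in WT and 16.3 times in mKO libraries, and Hk2 exceeded Hk1 94.4 and 52.4 times. Pgam2 made up 99.9% of the Pgam2 and Pgam1 sum in WT and 99.8% in mKO. The monocarboxylate carriers were an exception. Slc16a3 made up 71.5%, 66.1% and 64.2% of its sum with Slc16a1 in WT libraries and 48.4%, 55.7% and 44.9% in mKO libraries. MCT4 transcripts thus outnumbered MCT1 transcripts per length in all WT libraries and were close to equal with them in the mKO libraries.

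Per kilobase of exon, Eno3 was the most abundant of the 41 genes in both groups (3821 CPM in WT and 1487 in mKO), followed by Aldoa (2959.9 and 1211). In WT libraries the next were Pgam2 (1254), Tpi1 (998), Pkm (967) and Pygm (745). In mKO libraries they were Pkm (794), Pgam2 (678), Tpi1 (624) and Pygm (430.4), so that Pkm, which did not pass the test, stood in the third place. Retrocopies and pseudogenes were looked up by name only, as the symbol of a gene followed by -ps or -rs and a number. Counts assigned to the 9 found in this way came to at most 0.197% of those of the parent gene. Copies under other names were not searched. How reads that map to several places were counted is unknown, so levels of Gapdh, Aldoa, Pgk1, Ldha and Pgam1, which have copies so named, are uncertain. The same holds for any gene of the 41 with copies under other names. Listed exons of Gpd1, Gpi1 and Phkg1 share 13.0%, 11.5% and 9.68% of their bases with an overlapping gene, which adds the same kind of uncertainty.

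The promoters of isoform pairs that moved apart are shown for the mutase and the lactate carriers, 2 of the 3 pairs in which each gene has a single RefSeq start. The third, Pygm and Pygb, is not shown because 61 bases of the Pygb window lie in an exon listed in the count tables, against at most 14 in the windows shown. Each sequence holds the 250 bases before the RefSeq start, read 5′ to 3′ in the direction of the gene as the RefSeq table gives it (build GRCm38.p6). A check of 20 bases after the start against transcripts found this direction in 48 of 56 windows of the set and the reverse in 0. It was met for Slc16a3 and Slc16a1, and not for Pgam2 and Pgam1. RefSeq starts can differ from those of the counted genes. The counted Slc16a3 begins at 120948480, before its window, and the counted Pgam2, on the minus strand, starts at 5803733, short of its window. Capitals mark E-boxes (CANNTG, bound by MyoD family factors among others), the MEF2 site, and ACGTG, the core of a hypoxia response element, on either strand. The windows are chr11:5803797-5804046 (minus strand) for Pgam2, chr19:41911621-41911870 (plus) for Pgam1, chr11:120948817-120949066 (plus) for Slc16a3 and chr3:104638414-104638663 (plus) for Slc16a1.
Pgam2: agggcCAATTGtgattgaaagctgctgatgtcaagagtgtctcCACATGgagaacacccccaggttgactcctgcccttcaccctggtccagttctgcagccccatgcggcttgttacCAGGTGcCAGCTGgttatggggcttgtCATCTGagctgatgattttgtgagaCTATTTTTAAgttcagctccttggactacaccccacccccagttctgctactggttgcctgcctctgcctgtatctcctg
Pgam1: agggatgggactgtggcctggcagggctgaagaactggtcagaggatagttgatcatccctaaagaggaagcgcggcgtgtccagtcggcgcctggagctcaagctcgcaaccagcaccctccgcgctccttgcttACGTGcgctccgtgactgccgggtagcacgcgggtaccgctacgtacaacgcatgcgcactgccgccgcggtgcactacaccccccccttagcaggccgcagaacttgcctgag
Slc16a3: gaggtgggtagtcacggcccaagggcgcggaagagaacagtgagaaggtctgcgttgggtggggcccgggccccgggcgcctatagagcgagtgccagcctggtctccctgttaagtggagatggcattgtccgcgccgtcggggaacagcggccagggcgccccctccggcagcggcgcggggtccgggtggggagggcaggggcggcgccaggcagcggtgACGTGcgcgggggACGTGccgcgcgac
Slc16a1: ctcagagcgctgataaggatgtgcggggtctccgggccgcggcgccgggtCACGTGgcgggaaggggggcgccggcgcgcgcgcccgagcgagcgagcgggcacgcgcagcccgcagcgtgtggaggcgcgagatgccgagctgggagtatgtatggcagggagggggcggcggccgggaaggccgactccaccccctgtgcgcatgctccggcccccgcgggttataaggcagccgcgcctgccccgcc
The window of Pgam2, which fell, holds 5 E-boxes and 1 MEF2 site. The window of Pgam1, which was called higher, holds 0 E-boxes and 1 ACGTG. Slc16a3, which fell, has 0 E-boxes and 2 ACGTG close to the start. Slc16a1 has 1 E-box, whose letters CACGTG also hold ACGTG on each strand. The letters do not show whether a factor binds.

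Over the 39 genes of the set with a RefSeq window, ACGTG was present before a start of 18 (46.2%), against 18.5% of all 27025 genes in the table. The GC box GGGCGG was present in 61.5% against 35.4%, and the E-box CANNTG in 71.8% against 69.3%. The windows of the set were also richer in G and C, with a median of 57.8% in genes called lower, 63.4% in those called higher and 60% in those not called, against 52.4% over all windows. ACGTG was found in 11 of 22 genes called lower, 2 of 5 called higher and 5 of 12 not called. The MEF2 site was found in 3 genes of the set (Pgam2, Ppp1r3a and Pfkfb1, all called lower), or 7.69% against 3.42%. The M-CAT site CATTCC was present in 10.3% against 14.4%, and the MEF3 site TCAGGTT in 2.56% against 4.07%. Each motif was searched on both strands, and a gene counts if any of its windows holds the motif. The 39 genes have 56 windows, and the 27025 genes have 32851, so the set has more windows per gene. More windows favour a match, and the shares were not adjusted for this. They are descriptions without a test.

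Beyond the 41 genes, 80 other genes of the pathway were listed, of which 69 could be tested. Called lower were 23 of 69 and called higher 11 of 69, against 18.9% and 18.2% of all tested genes, so that the count called higher was near the background. The median log2 fold change was -0.17. With library totals 14 were lower and 30 higher, against 6.75% and 49.0% of all tested genes. Nearest to the glycogen genes above were the other glycogen enzymes, with 9 of 17 lower and 2 higher. Pgm1, the phosphoglucomutase that links glycogen to glycolysis, was at 1464, 1505 and 1542 CPM in WT and 499.6, 473 and 521 CPM in mKO libraries, 3.02-fold lower (log2 -1.59, SE 0.11, edgeR adjusted p = 6.09e-07). Its groups lay far apart. Epm2a, the glycogen phosphatase laforin, fell 2.49-fold (log2 -1.31, edgeR adjusted p = 2.66e-06). The alpha subunit gene Phka2, the liver counterpart of Phka1, rose from 10.7, 9.47 and 8.31 CPM in WT to 13.6, 16.7 and 14.1 CPM in mKO libraries (log2 0.64, edgeR adjusted p = 0.00365). Gsk3b, a kinase that inhibits glycogen synthase, rose 1.31-fold (edgeR adjusted p = 0.0117).

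Of the other groups, Slc37a4, the glucose 6-phosphate carrier of the endoplasmic reticulum, fell 2.87-fold (log2 -1.52, edgeR adjusted p = 4.26e-06). Txnip, an inhibitor of glucose uptake, was at 605, 589 and 538 CPM in WT and 202, 253 and 265 CPM in mKO libraries (log2 -1.27, edgeR adjusted p = 1.09e-05). Bpgm, which makes 2,3-bisphosphoglycerate, fell 2.26-fold (edgeR adjusted p = 1.47e-05). Higher were Pck2, the mitochondrial phosphoenolpyruvate carboxykinase, with 2.10, 2.36 and 1.62 CPM in WT and 8.90, 7.36 and 7.37 CPM in mKO libraries (log2 1.96, edgeR adjusted p = 1.15e-05). Emb, which encodes embigin, a partner of monocarboxylate carriers, rose 2.73-fold (edgeR adjusted p = 0.00137). The nuclear receptor gene Nr4a3 rose 2.64-fold (edgeR adjusted p = 0.000299), and Ppp1r3f rose 2.46-fold from under 1 CPM (edgeR adjusted p = 0.00899). Of the listed exon bases of Ppp1r3f 52.9% overlap Gm36995 and Flicr, and of those of Txnip, Emb and Pgm1 19.4%, 14.8% and 13.6% overlap another gene, so these values are uncertain. Among 14 transcription regulators of the pathway, 2 were lower and 3 higher (with library totals 1 and 9), and among 10 genes of GLUT4 traffic 2 were lower and 1 higher (with library totals 2 and 5). The counts with TMM scaling are near the 18.9% and 18.2% of all tested genes. With library totals the shares of all tested genes were 6.75% lower and 49.0% higher.

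**Figure D4:**
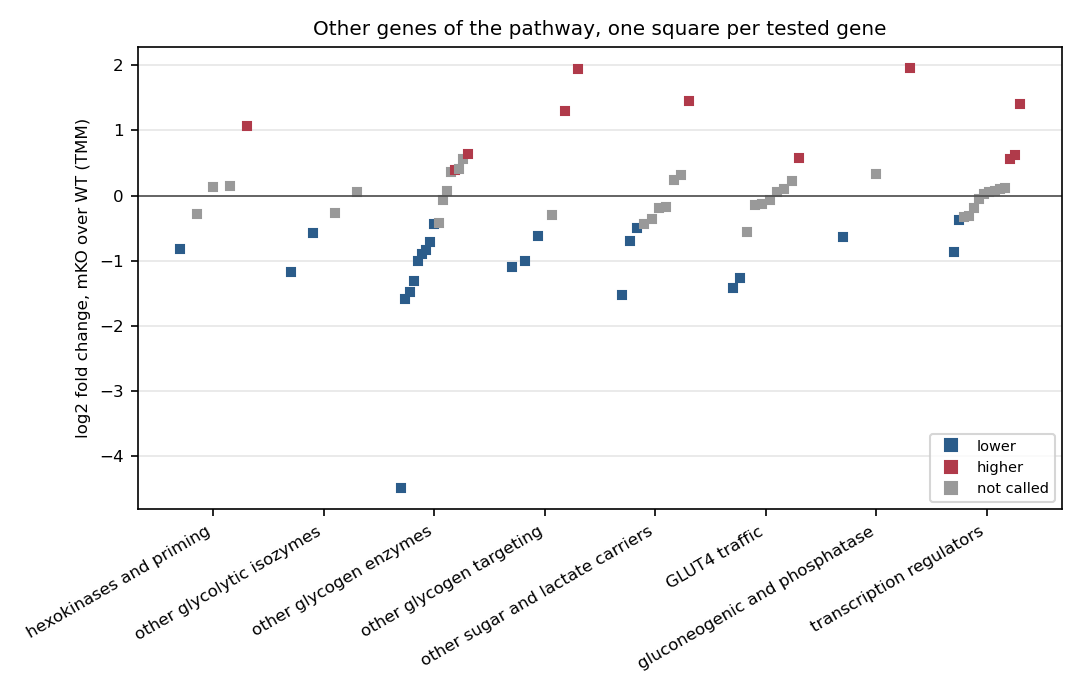
Log2 fold change (mKO over WT, TMM scaling) of the 69 tested other pathway genes, 1 square per gene, arranged by group and coloured by call (blue lower, red higher, grey not called). Values run from -4.49, for the liver glycogen synthase gene Gys2, whose 2 or 3 counts in each mKO library leave its size imprecise, to 1.96 for Pck2, and the group of other glycogen enzymes holds the most squares called lower (9 of 17).

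Markers of fibre type and of other cells moved with these groups. The summed level of 12 fast-fibre genes was 138185 to 141117 CPM in WT and 59405 to 67232 CPM in mKO libraries, with 11 of 12 called lower. That of 9 slow-fibre genes was 511 to 785 and 679 to 1388 CPM, which overlapped, with 2 called lower and 4 higher. With library totals the slow-fibre sums did not overlap, at 431 to 674 CPM in WT and 783 to 1623 CPM in mKO libraries. The genes of this list moved unevenly. On the TMM scale the mean of Casq2 went from 59.7 CPM in WT to 278 CPM in mKO libraries. Means of Myl2 and Myl3 went down, from 223 to 92.3 CPM and from 101 to 31.9 CPM. Myh7 was at 360 CPM in mKO replicate 2, against 38.6 and 45.1 CPM in mKO replicates 1 and 3. The sum of 10 immature-fibre genes was 63.4 to 123 CPM in WT and 681 to 734 CPM in mKO libraries, with 10 of 10 called higher. Macrophage genes summed to 289.7 to 352 CPM in WT and 637 to 1055 CPM in mKO libraries (12 of 12 called higher), and fibro-adipogenic genes to 1901 to 2111 and 2509 to 2674 CPM (2 of 10 called higher). Endothelial genes summed to 325 to 423 CPM in WT and 197 to 218 CPM in mKO libraries (10 of 10 called lower). Smooth muscle genes summed to 622 to 695 and 314 to 351 CPM, with 2 of 5 called lower and 1 higher. Most of that sum was Rgs5, at a mean of 581 CPM in WT and 258 CPM in mKO libraries. Acta2 of the same list went the other way, from a mean of 26.0 to 38.5 CPM. Erythroid genes summed to 14.5 to 18.1 and 3.35 to 6.52 CPM (2 of 4 tested genes called lower). Lymphocyte genes summed to 0.501 to 0.613 and 0.729 to 1.06 CPM, and only 1 of 7 could be tested (called higher). Sums of satellite cell, adipocyte and Schwann cell genes overlapped between groups, but with library totals the satellite cell sums lay apart (28.5 to 36.9 CPM in WT and 41.5 to 47.6 CPM in mKO libraries). No gene of these lists was at 0 in all libraries, and the part of these cells or fibres in the values of the 41 genes was not tested.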

How the data were processed

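Per the labels' protocols, RNA was taken from frozen gastrocnemius with Trizol, and the library kit was NEBNext Ultra RNA. The authors deposited raw counts of reads per gene, summed over the listed exons per the file headers, which also give an exon length per gene. Per the submitters' processing notes, Subread 1.5.2 (featureCounts), STAR 2.5.2b and Trimmomatic 0.36 were used, on build GRCm38. Strand and multiple-mapping settings were not stated, so genes with overlapping or antisense neighbours are uncertain.

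Groups came from sample titles. Counts were tested with edgeR 4.0.16 in R 4.3.3 (TMM factors, default expression filter, group as the only term, adjusted p under 0.05). The steps were tested on simulated data in which few genes changed, equally in both directions. That setting differs from these libraries and cannot check the choice of scaling. The biological coefficient of variation was 16.1%. Libraries of a group differed beyond sampling noise (chi-square per degree of freedom 20.9 to 57.7). CPM per kilobase uses the exon length. Alternatives were DESeq2 1.42.0, limma-voom (limma 3.58.1), other scalings, filters and thresholds, a replicate block, and leaving out each library or the mitochondrial and 10 most abundant genes. Intervals of isoform ratios are SDs over libraries.

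All 41 genes are named, with up to 6 other pathway genes per direction by lowest p, Hnrnpu, each skeletal muscle marker and sums of the other marker lists. The rule takes 1 gene that is not reported here, and Gys2 was named after its value was seen. The genes and lists were chosen with earlier results of these data known. RefSeq windows were found for 39 of the 41 genes. Splicing was not analysed here.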

Additional observations from a re-analysis of the deposited data

How the results depend on the processing

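With library totals 9283 genes changed, 1124 lower and 8159 higher, and with an adjusted p under 0.01 there were 3973, of which 1867 were higher. Of the 41 genes, 24 or 25 were lower in every setting but library totals (18). Those called higher numbered 12 with library totals, 8 with upper quartile factors, 2 at 0.01 and 2 to 8 when single libraries were left out. The median of the 41 was -0.21 with library totals. Other pathway genes were 14 lower and 30 higher with library totals, 5 higher at 0.01, and 7 to 11 higher without single libraries (7 without WT replicate 3). Library totals turned the log2 value of Slc16a1 to 0.0051, Hk2 to 0.39, Gpi1 to 0.27, Pfkl to 0.18, Eno1 to 0.36, Pkm to 0.18 and Gyg to 0.33, because the scaling itself shifts all genes upward. Hk2 ranged from -0.19 (without WT replicate 3) to 0.070 (without WT replicate 2), and Ldha over Ldhb ranged from -0.34 to 0.18 without single libraries. In both the cause was not tested. Same-numbered libraries did not deviate together (r = 0.018, -0.002 and 0.022 for numbers 1 to 3) and not every library correlated best with its own number. With the replicate number as a block 5519 genes changed, 24 of the 41 were lower and 5 higher, and Gys1 gained a call (adjusted p = 0.0481) and Pgam1 lost one (0.0506). Of the 24 genes called lower, 18 kept the call in all 17 settings and 24 in all but library totals. Aldoc had as few as 3 counts in a library, which limits its precision.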
